A study of Rattus norvegicus with 4 samples.

Results

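Heart tissue taken 14 days after a myocardial infarction (MI) was compared with heart tissue taken 14 days after a sham operation, across every rat microRNA (miRNA) probe on the array. The study had 4 arrays, 1 for each of MI and sham at day 2 and at day 14, and only the 2 day 14 arrays were used. All rats were male Wistar. In the MI group the chest and pericardium were opened and the LAD, a main coronary artery, was tied off, and in the sham group the same operation was done without the ligation. Each group's RNA came from 3 rats and was pooled into 1 sample, of which 500 ng were labelled with the dye Hy3, and each pool was hybridized to 1 miRCURY LNA array. The labels do not say which region of the heart was taken. The groups follow the sample titles, because the treatment protocol repeats the wording for the day 2 sham rats on each sample.

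The rat probes numbered 677 of the 2345 probes left after controls. Of these, 214 were detected in the MI pool and 173 in the sham pool: 157 on both arrays, 57 on the MI array only and 16 on the sham array only. The other 447 were detected on neither and are not described further. Detection of a spot required a foreground more than 2 background SDs above its local background, and detection of a probe required this of at least 50% of its 4 spots. A single array per group allows no test. The errors below are standard errors (SE) of the difference over the 4 spots of each array, which leave out the spread between rats and between arrays. Since each group was 1 slide, slide and group cannot be told apart.

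miRNAs are short RNAs, cut from a hairpin precursor, that guide the silencing complex to messenger RNAs and lower their output. Pairing rests mainly on the seed, bases 2 to 8 of the mature strand, so miRNAs with 1 seed are grouped as a family. Heart muscle is rich in miR-1, miR-133 and the miRNAs carried in myosin genes (miR-208, miR-208b, miR-499), while fibroblasts, smooth muscle, endothelium and leukocytes are known for other sets. After an infarct, dead muscle is cleared by leukocytes and replaced by a scar made by fibroblasts. In pooled tissue, fewer cells of a type and less of a miRNA per cell cannot be told apart.

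Mature sequences are given for the miRNAs on which the results turn, so that shared seeds can be seen. They are from RefSeq (GRCr8), written 5′ to 3′, with the seed in capitals. Of the 230 detected probes 149 were matched to RefSeq, as were 32 of the 35 probes that passed the 2-fold threshold. The first set holds both arms of the miR-31 hairpin, miR-21, and the 3 products of the Mir199a2 and Mir214 hairpins, all among the 10 with the highest folds in the MI pool.
miR-31: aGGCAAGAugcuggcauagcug
miR-31*: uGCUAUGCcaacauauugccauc
miR-21: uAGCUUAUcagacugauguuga
miR-199a-5p: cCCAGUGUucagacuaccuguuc
miR-199a-3p: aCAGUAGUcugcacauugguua
miR-214: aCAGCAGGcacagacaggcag

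The second set holds heart muscle miRNAs and miR-206, a skeletal muscle miRNA with the seed of miR-1. miR-208b-3p and miR-208 have the same seed and differ at 3 of 18 positions, miR-133a and miR-133b differ at 1 of 22, and miR-1 and miR-206 at 3 of 22.
miR-208b-3p: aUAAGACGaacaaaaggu
miR-208: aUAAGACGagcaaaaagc
miR-133a: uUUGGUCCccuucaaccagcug
miR-133b: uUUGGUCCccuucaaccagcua
miR-1: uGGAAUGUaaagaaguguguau
miR-206: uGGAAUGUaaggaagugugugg

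The third set holds families in which every detected member was past 2-fold in the MI pool (miR-34 and miR-221/222), the 3 higher members of the miR-15 seed family, and let-7c with a near relative, let-7b, from which it differs at 1 of 22 positions.
miR-34a: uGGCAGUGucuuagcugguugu
miR-34b: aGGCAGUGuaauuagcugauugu
miR-34c: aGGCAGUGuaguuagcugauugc
miR-221: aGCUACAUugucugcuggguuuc
miR-222: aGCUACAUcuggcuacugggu
miR-195: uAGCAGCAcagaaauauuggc
miR-497: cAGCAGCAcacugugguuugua
miR-15b: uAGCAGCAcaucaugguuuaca
let-7c: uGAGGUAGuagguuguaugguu
let-7b: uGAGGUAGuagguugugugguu

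Of the 230 rat miRNA probes detected on at least 1 array, 27 (11.7%) were higher in the MI pool by 2-fold or more and 8 (3.48%) were lower by as much, 35 (15.2%) in all. Of the rest, 188 lay within 2-fold and 7 gave no fold. Of the 27, 18 were detected on both arrays, and 9 were detected in the MI pool only, so that their fold is a lower bound ("at least"). The balance of higher and lower rests on the scaling: with the arrays centred on the probes detected on both, 16 were higher and 31 lower, and with a shift to a median difference of 0, chosen after seeing the data, 21 and 21. With quantile normalization 10 miRNAs were 4-fold or more higher in the MI pool and 0 were 4-fold lower; 3 of 116 recomputed probes were 4-fold lower in the authors' deposited table. Over all 230 probes 156 (67.8%) had a value above 0, a share partly fixed by the rule on bounds, since a probe detected in MI only cannot fall below 0. In the 157 probes detected on both arrays the median log2 difference, MI minus sham, was 0.24, with quartiles of -0.15 and 0.62; 106 were above 0 and 51 below. That median was -0.25 with centred arrays and -0.16 in the authors' table. Normalized MI and sham spots were fully separate for 34 of the 35 miRNAs past 2-fold, let-7c being the exception. The same held for 134 of all 230 (58.3%), 105 with MI above (45.7%) and 29 with MI below (12.6%), so separate spots alone set few probes apart.

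**Figure D1:**
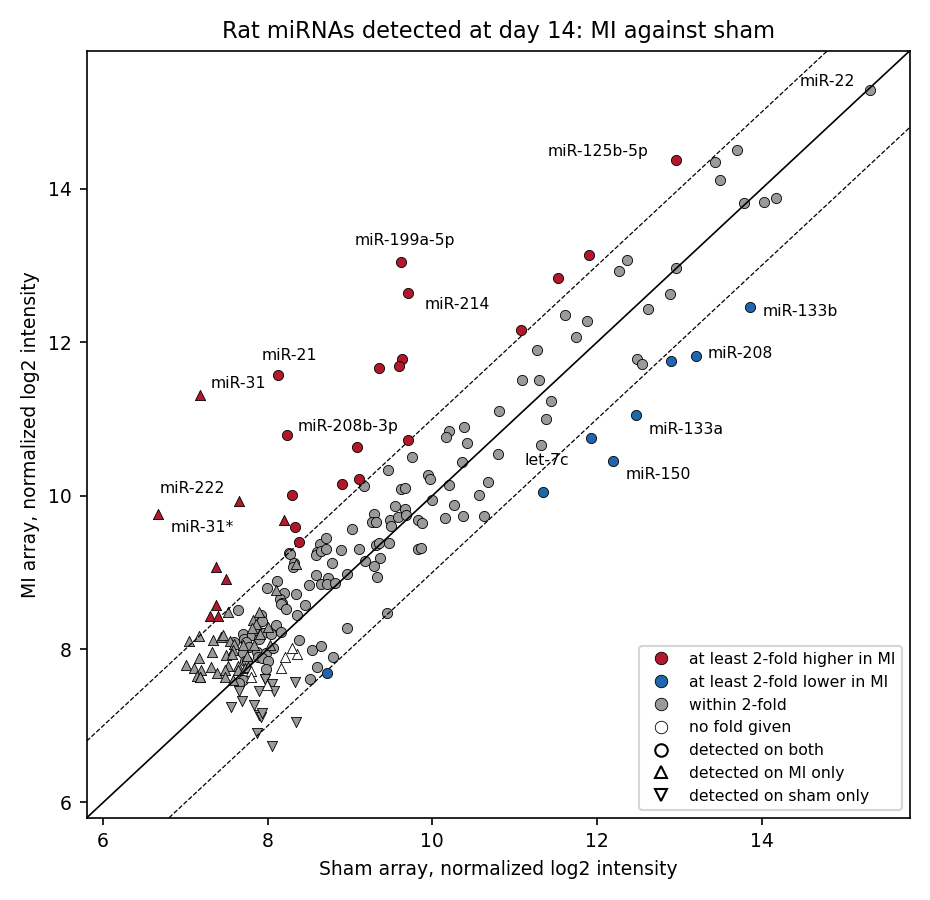
Normalized log2 intensity of the 230 detected rat miRNA probes on the MI array (vertical) and the sham array (horizontal), each point the mean of 4 spots. The solid line marks equal intensity and the dashed lines 2-fold. The 27 red points lie above the upper dashed line and the 8 blue ones below the lower. Some grey points also lie outside the dashed lines, such as miR-191* (measured -1.29, bound -0.95), because colour follows the bound.

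The probe for miR-31, the miRNA in the title of the series, showed the highest fold. Its 4 MI spots read 2494, 3071, 3374.5 and 3601 intensity units, against 645, 148.5, 100 and 195 in sham. Every MI spot was above every sham spot, and 0 of the 4 sham spots were detected, the spot at 645 included, since none exceeded its own background by the limit. The MI pool was therefore at least 16.9-fold above sham for miR-31 (log2 4.08, SE 0.23). The opposite arm of its hairpin, miR-31*, read 1020, 967, 936 and 1022.5 in MI and 73.5, 85, 60 and 72 in sham. The sham spots lay about at their local background of 84, and miR-31* was at least 5.76-fold higher in MI (2.53, SE 0.07). Both bounds move with the floor that each setting puts under the sham value: over 16 alternatives miR-31 ran from 3.46 to 7.30 and miR-31* from 1.95 to 5.97. The Mir31 hairpin lies on rat chromosome 5 (GRCr8, 108714849 to 108714954, minus strand), within the span of no protein-coding gene in RefSeq. Non-coding genes were not searched.

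In the list for fibroblasts and smooth muscle, the probes past 2-fold were miR-21 and the products of the Mir199a2 and Mir214 hairpins. Those of the smooth muscle miRNAs miR-143 and miR-145 were not past it. Of the 10 probes of this list, 8 were detected, 4 of them past 2-fold higher in the MI pool (11.7% over all detected probes) and 0 lower. The list's median log2 difference was 1.45, against 0.29 over all probes with a value. That median fell in a gap, as no member lay between 0.81 and 2.10. Every list here was chosen with earlier results of these data known, so a list's share beside that of all probes tests nothing. miR-21, which is abundant in fibroblasts and induced in injured heart, read 4245, 3477.5, 3975 and 3404.5 in MI, against 227, 243, 265.5 and 245.5 in sham. It was 10.9-fold higher (3.45, SE 0.09). miR-199a-5p read 9823, 10231, 9791 and 9962.5 in MI and 657, 600, 687.5 and 655 in sham, a 10.8-fold difference (3.43, SE 0.06). For both miRNAs the spots of the arrays lay more than 10-fold apart.

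miR-214, transcribed with miR-199a, read 8626, 8299, 8600 and 8360.5 in MI and 637, 657, 715 and 774 in sham, and was 7.68-fold higher (2.94, SE 0.06). miR-199a-3p, from the other arm of the miR-199a hairpin, was 4.28-fold higher (2.10, SE 0.05). The remaining members of the list did not pass 2-fold: miR-143, of smooth muscle, had a log2 difference of 0.81 (SE 0.07), miR-21* 0.53 (SE 0.25), miR-145* 0.50 and miR-145 -0.15 (SE 0.04). Without normalization miR-143 was past 2-fold, at 1.24, and miR-145 above 0, at 0.27; with the spike-in shift miR-143 was at 1.12.

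**Figure D2:**
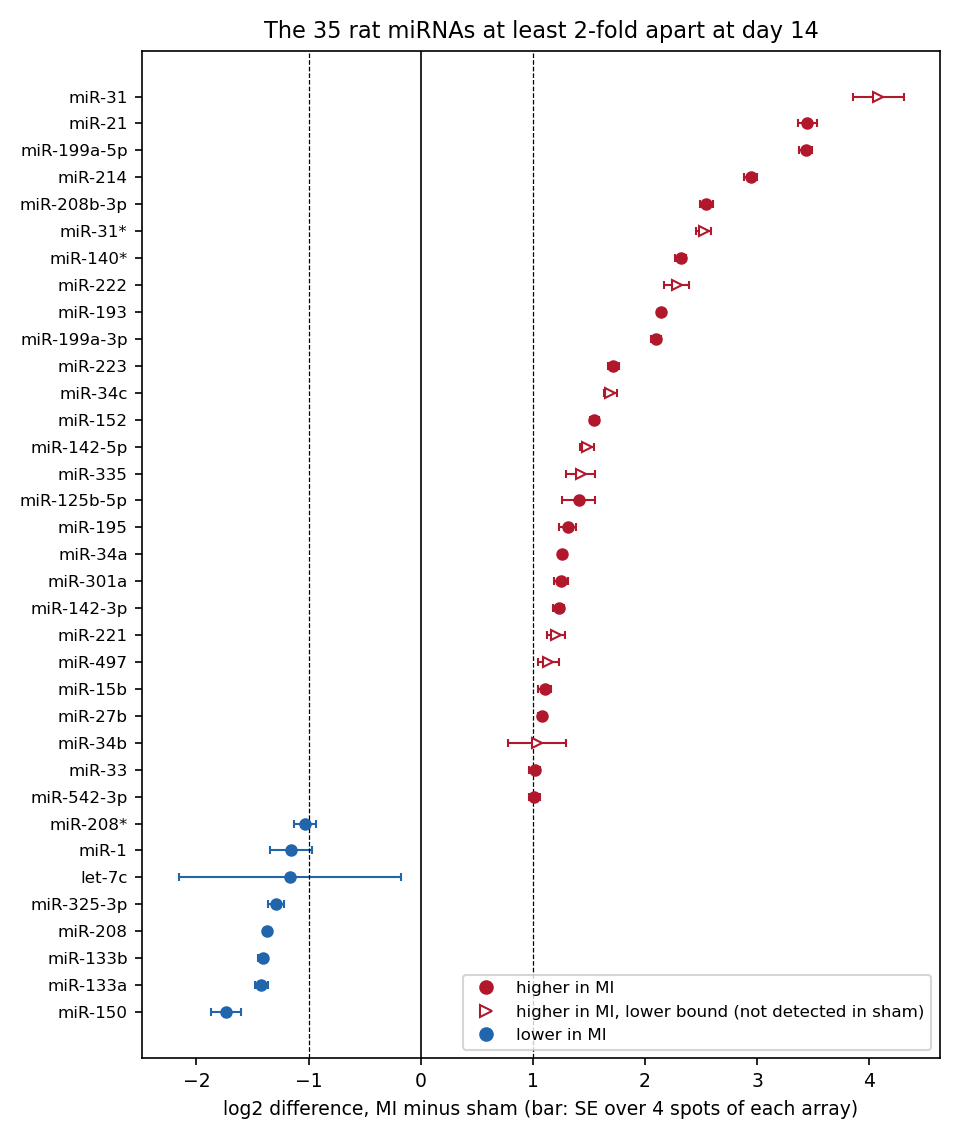
Log2 difference, MI minus sham, for the 35 rat miRNAs at least 2-fold apart, with bars for the SE over the 4 spots of each array. Open triangles are lower bounds for miRNAs not detected in sham; miR-31 stands at 4.08 and miR-150 at -1.74, and the wide bar belongs to let-7c.

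Heart muscle miRNAs were lower in the MI pool, with 1 exception. Of the 12 probes of this list 9 were detected, so miRNAs that define the labelled tissue were present; 5 were past 2-fold lower and 1, miR-208b-3p, past 2-fold higher. Together these are 66.7% of the 9, against 15.2% over all detected probes, and the list's median was -1.03. The list was chosen with earlier results of these data known, so that contrast tests nothing. The lower members are not all separate: miR-208 and miR-208* are arms of 1 hairpin, and miR-133a and miR-133b differ at 1 base. All 8 detected members other than miR-208b-3p were below 0.

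miR-133a, which restrains growth and matrix genes in heart muscle, read 2502, 2425, 2421 and 2377.5 in MI and 4228, 4100, 4633.5 and 4643 in sham, and was 2.68-fold lower after normalization (-1.42, SE 0.06). miR-133b read 6966.5, 7321.5, 6885 and 7387 in MI and 11939, 12357, 13316.5 and 13433.5 in sham (-1.41, SE 0.04). Since the pair differs at 1 base, the probes may share signal, which was not tested. miR-1, the muscle miRNA made with miR-133a, read 3809, 3797, 4556.5 and 5383 in MI against 4984.5, 4736.5, 7527.5 and 8137 in sham. Its scanner values overlapped between the arrays, and the log2 difference was -1.16 (SE 0.19) after normalization.

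Within the list, the miRNAs of the myosin genes differed in direction. miR-208, whose hairpin Mir208a lies within Myh6, the gene of alpha myosin heavy chain, read 4599, 4427, 4459 and 4439 in MI and 8212.5, 8019, 8079 and 8342 in sham. It was 2.59-fold lower in MI (-1.37, SE 0.03), and miR-208*, the other arm, was 2.04-fold lower (-1.03, SE 0.10). miR-208b-3p, whose hairpin Mir208b lies within Myh7, the gene of beta myosin heavy chain, read 2109.5, 2167.5, 2043 and 2033 in MI, against 261, 262, 273.5 and 304 in sham. It was 5.84-fold higher in MI (2.55, SE 0.06). The 2 hairpins lie on chromosome 15 (GRCr8, 32395552 to 32395634 for Mir208a and 32421615 to 32421726 for Mir208b, both on the minus strand), and their mature strands share the seed UAAGACG. miR-499, carried in Myh7b, was at -0.66 (SE 0.19) and miR-499* at -0.61 (SE 0.16), short of 2-fold. In rodents the alpha chain prevails in the adult ventricle and the beta chain in the fetal and the overloaded one.

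**Figure D3:**
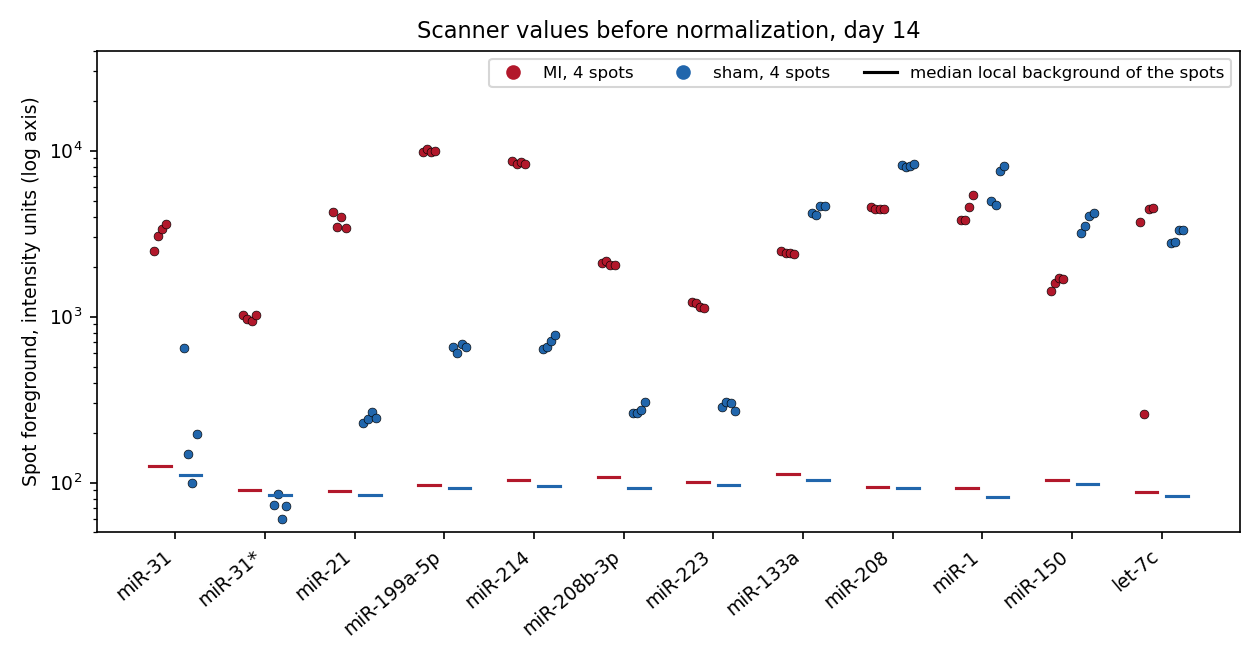
Scanner foreground of the 4 spots of each array for 12 miRNAs, before any normalization, MI left of sham, on a log axis; short lines are the median local background. Each MI spot of miR-31, miR-31*, miR-21, miR-199a-5p, miR-214, miR-208b-3p and miR-223 lies above each sham spot; each MI spot of miR-133a, miR-208 and miR-150 lies below each sham spot, the spots of miR-1 overlap, and let-7c has 1 MI spot at 259.

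Whether the lower heart muscle miRNAs pass 2-fold depends on how the arrays are scaled. Among the 52 brightest of the probes detected on both arrays, the median log2 difference was 0.24 with quantile normalization and 0.69 without; among the 53 dimmest it was 0.24 and 0.25. Without normalization the MI array was thus brighter among bright probes, and miR-133a was at -0.86, miR-133b at -0.84, miR-208 at -0.87 and miR-1 at -0.51, all under 2-fold, so that 0 heart muscle miRNAs passed as lower. With a shift by 44 spike-in control probes 1 passed, and 7 did in the authors' deposited table. The direction of each of the 5 stayed the same in all 16 alternatives. miR-208b-3p was past 2-fold higher in all 16, from 2.08 to 3.15.

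**Figure D4:**
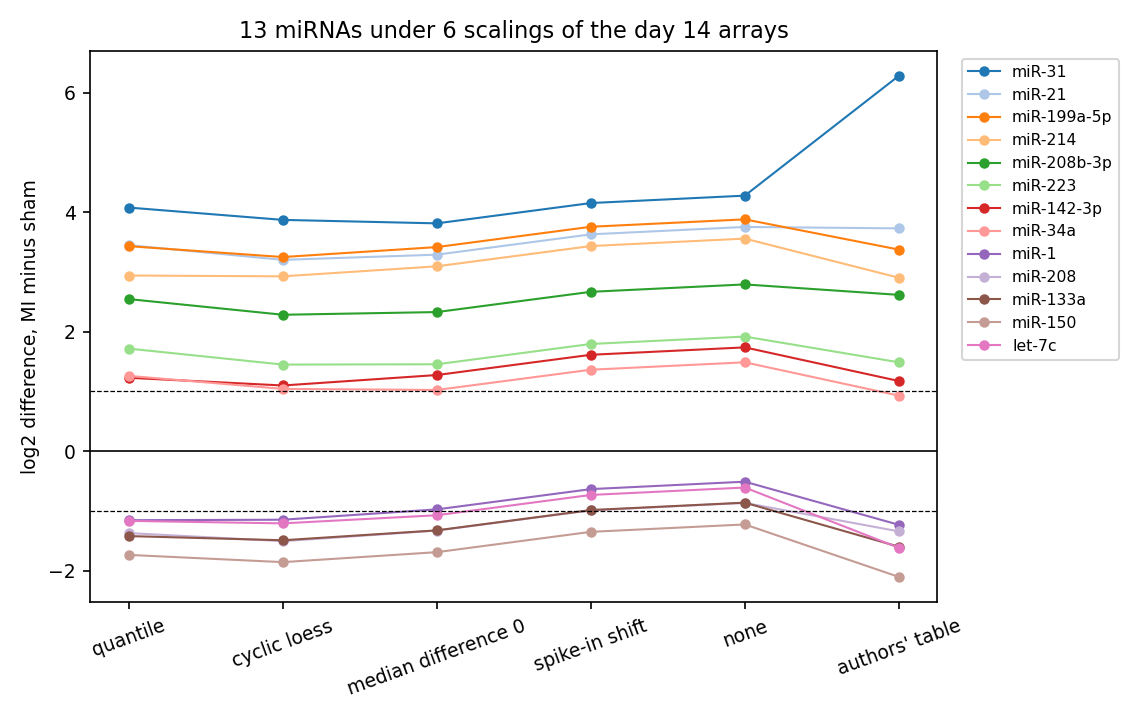
Log2 difference, MI minus sham, of 13 miRNAs under 6 scalings of the day 14 arrays; dashed lines mark 2-fold. miR-31, miR-21, miR-199a-5p, miR-214, miR-208b-3p, miR-223 and miR-142-3p lie above the upper line throughout and miR-150 below the lower one, while miR-1, miR-208, miR-133a and let-7c lie inside 2-fold without normalization.

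miR-150 had the lowest value of all detected probes and stood opposite to the other leukocyte miRNAs. It is a miRNA of mature lymphocytes, and read 1430, 1594, 1701 and 1696.5 in MI, against 3180.5, 3535.5, 4048 and 4207.5 in sham. It was 3.33-fold lower in MI (-1.74, SE 0.13), and past 2-fold in all 15 alternatives that gave a value, from -2.10 to -1.23. miR-223, of neutrophils and other myeloid cells, read 1225, 1214, 1140 and 1134 in MI and 287, 304, 300 and 270.5 in sham, and was 3.29-fold higher (1.72, SE 0.05). miR-142, found in most blood cell lineages, was higher from both arms of its hairpin. miR-142-3p read 10083.5 to 10524.5 in MI and 2989 to 3162 in sham (1.23, SE 0.05), and miR-142-5p was at least 2.79-fold higher (1.48, SE 0.06).

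miR-146b and miR-146a, induced by inflammatory signalling, were at 0.96 (SE 0.09) and 0.75 (SE 0.09), short of 2-fold. In all, 6 of 15 leukocyte probes were detected, 3 past 2-fold higher and 1 lower (11.7% and 3.48% over all detected probes), with a median of 1.10; miR-132, miR-212 and miR-147 were not detected. The red cell miRNAs miR-451 and miR-144 were at 0.01 and 0.21, so that the blood miRNAs did not move as 1 block.

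Among endothelial miRNAs, the pair that shares the seed GCUACAU differed from miR-126. The probe for miR-222 read 1207, 1126.5, 1060.5 and 989 in MI and 164, 140, 204 and 172 in sham, and was at least 4.87-fold higher (2.28, SE 0.11). miR-221, from a hairpin beside it on chromosome X, was at least 2.31-fold higher (1.21, SE 0.08). Both occur in endothelium, smooth muscle and dividing cells. miR-126, carried in Egfl7 and largely particular to endothelium, was among the brightest probes on both arrays and read 16588 to 17910 in MI and 15460 to 17866.5 in sham. It had a log2 difference of -0.29 (SE 0.08) after normalization and 0.05 without, and miR-126* one of -0.39. The spots of miR-126 overlapped before normalization, and its direction was therefore not settled. The endothelial list had 5 of 9 probes detected, 2 higher (11.7% over all detected probes) and 0 lower. Its median of 0.87 is the bound of miR-221*, and was 0.07 with centred arrays, where miR-221 was under 2-fold; miR-221 was past 2-fold in 12 of 16 alternatives.

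All 3 members of the miR-34 family, targets of the tumour suppressor p53, were past 2-fold higher. miR-34a read 882, 904, 866 and 910.5 in MI, against 295.5, 305, 293 and 287 in sham (1.26, SE 0.02). miR-34c was at least 3.23-fold higher (1.69, SE 0.06) and miR-34b at least 2.05-fold (1.04, SE 0.26). The bound of miR-34b was the less firm: 1 sham spot stood at 241 beside 117, 116 and 126.5, and it was past 2-fold in 6 of 16 alternatives. miR-34b and miR-34c differ at 2 of 23 positions, so shared signal between their probes was not tested. miR-34b*, from the other arm, lay at -0.24 (SE 0.06). In all, 4 of 6 probes of the miR-34 hairpins were detected, 3 higher (11.7% over all detected probes) and 0 lower, with a median of 1.15. With centred arrays 1 was past 2-fold and the median was 0.54. miR-34a was past 2-fold in 14 of 16 alternatives, at 0.78 with centred arrays and 0.93 in the authors' table.

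In the miR-15 group, whose members slow the cell cycle, 6 miRNAs were detected, 5 with the seed AGCAGCA and miR-503 with AGCAGCG. Of the 5, 3 were past 2-fold higher, against 11.7% of all detected probes. Over the 6, the count was 4 without normalization, 2 in the authors' table and 1 with cyclic loess or with centred arrays. miR-195 read 9069.5 to 9410.5 in MI and 2154 to 2547 in sham (1.31, SE 0.08). miR-497, from the hairpin next to it on chromosome 10, was at least 2.20-fold higher (1.14, SE 0.09), a bound past 2-fold in 6 of 16 alternatives. miR-15b was 2.15-fold higher (1.11, SE 0.06), past 2-fold in 12 of 16 alternatives. miR-16, from the hairpin beside it on chromosome 2, was at 0.66 (SE 0.10). miR-322, the last with this seed, was at -0.05, and miR-503 at 0.39. The members with the seed AGCAGCA thus spread over 1.36 log2 units.

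The other miRNAs past 2-fold higher belonged to no single group. miR-140*, whose hairpin lies within Wwp2 and is best known from cartilage, read 3854, 4024, 4138 and 4079.5 in MI and 528, 535, 588 and 517.5 in sham, a 4.98-fold difference (2.32, SE 0.05). miR-193 read 4280.5 to 4382 in MI against 606 to 677 in sham (2.14, SE 0.03). Neither had overlapping spots. miR-152, whose hairpin lies within Copz2, was 2.93-fold higher (1.55, SE 0.04), and miR-335 at least 2.69-fold (1.43, SE 0.13). miR-125b-5p was among the 10 brightest probes of both arrays and 2.66-fold higher (1.41, SE 0.15). miR-301a was at 1.25 (SE 0.06), miR-27b at 1.08 (SE 0.03), miR-33, which lies within the cholesterol regulator gene Srebf2, at 1.01 (SE 0.05), and miR-542-3p at 1.01 (SE 0.05).

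Outside heart muscle and leukocytes, 2 miRNAs were past 2-fold lower. miR-325-3p read 1208, 1170, 1244 and 1243 in MI and 2055, 2098.5, 2233.5 and 2148 in sham (-1.29, SE 0.07). let-7c, of a family that restrains growth, had 3 MI spots at 3708, 4477.5 and 4505 and 1 at 259, against 2779.5, 2823, 3304 and 3342 in sham. The 3 bright MI spots were above every sham spot before normalization, and the mean log2 difference of -1.17 (SE 0.99) rests on the dim one. Taking the spots' median gave -0.24, and leaving out the spot set with the dim spot gave -0.23. let-7b was at -0.25 (SE 0.11), and the other detected members with the seed GAGGUAG lay between -0.17 and 0.74.

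In the lists for matrix, growth and metabolism at most 1 miRNA each was past 2-fold with quantile normalization, to be read against 15.2% of all detected probes. These counts moved with the setting. The matrix-related list had 4 lower in the authors' table, and the miR-23/24/27 group 5 higher without normalization and 0 with centred arrays. With plain subtraction of the local background, the miR-99, miR-100, miR-125a/b and miR-10 group had 5 higher and the miR-17-92 group 3. Of 28 matrix-related probes 20 were detected, 0 higher and 1 lower (miR-133a), with a median of -0.18. miR-29a, miR-29b and miR-29c, which repress collagen genes, were at 0.02, -0.37 and -0.64, and miR-30e at -0.84. In the miR-17-92 group and its paralogues 9 of 27 were detected, with a median of 0.60 and 0 past 2-fold; miR-106b was highest at 0.87. The miR-23/24/27 group had 8 of 11 detected, 1 past 2-fold (miR-27b) and a median of 0.63, and the group of miR-99, miR-100, miR-125a/b and miR-10 had 9 of 15, 1 past 2-fold (miR-125b-5p) and a median of 0.41. The let-7 list had 11 of 18 detected and a median of 0.20. In the metabolic list 8 of 13 were detected, with 1 higher (miR-33): miR-210, induced by low oxygen, was at 0.04 (SE 0.06), and miR-378, of energy metabolism, at -0.71 (SE 0.08).

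**Figure D5:**
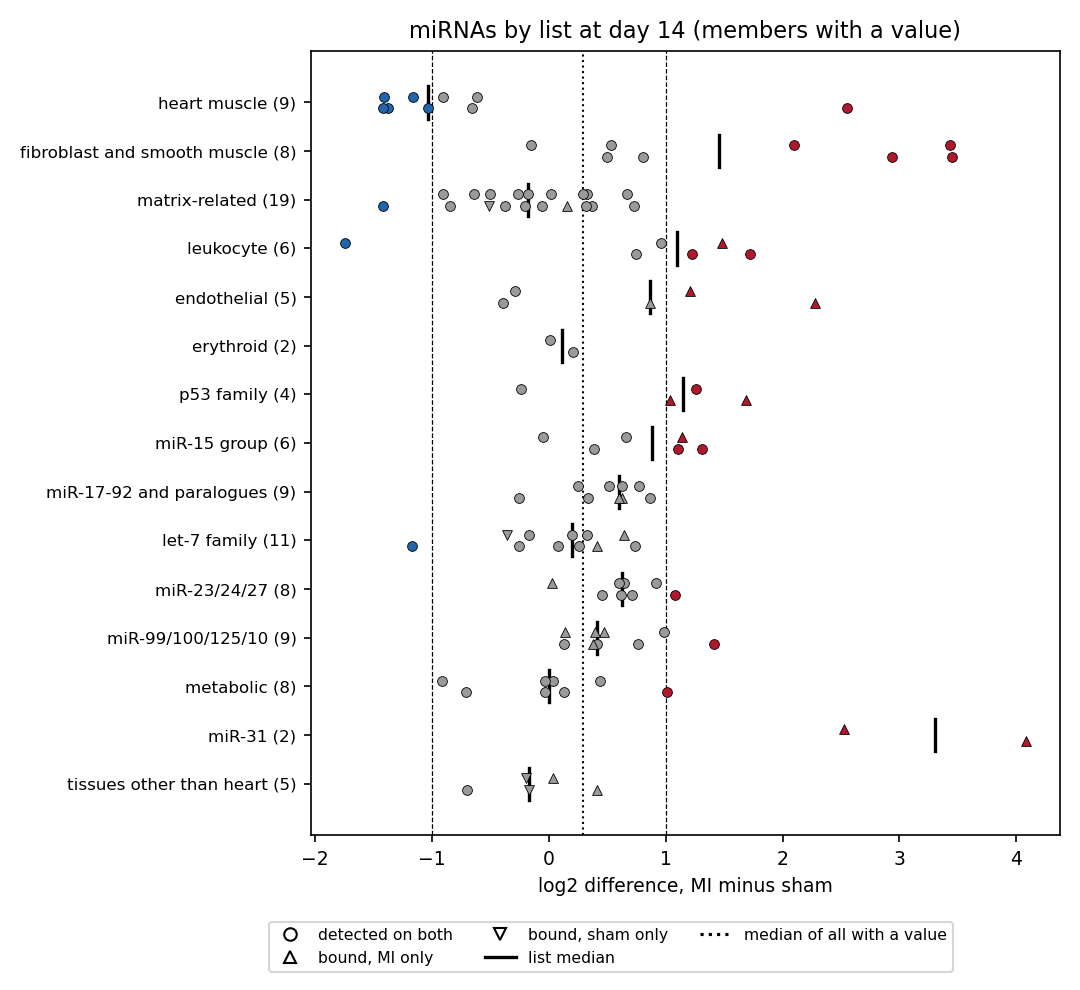
Log2 difference, MI minus sham, of each list's members with a value (number in brackets); the thick bar is the list's median, the dotted line the median of all probes with a value (0.29) and dashed lines 2-fold. Heart muscle lies lowest, with miR-208b-3p alone at 2.55, and miR-31 and the fibroblast and smooth muscle list reach highest.

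Of 24 probes for miRNAs that mark tissues other than heart 5 were detected and 79.2% were not, against 66.0% of all rat probes. Those for miR-122 of liver, miR-124 of neurons, miR-375 of endocrine cells and miR-203, miR-200a, miR-200b and miR-141 of epithelia were among the undetected. Of the 5, miR-206 of skeletal muscle was detected on both arrays at -0.70 (SE 0.17); it shares its seed with miR-1, and signal from miR-1 on its probe was not tested. The rest were detected on 1 array only, with bounds of 0.41 for miR-205, 0.04 for miR-9, -0.17 for miR-200c* and -0.19 for miR-128.

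miRNAs were also grouped by seed and by hairpin. The lists were built from hairpins and some are seed families, so these groups regroup many of the same probes and are no separate evidence. The matched probes held 109 seeds, and 24 seeds had at least 2 detected probes, 64 in all. Of those 24 seeds, 10 had a member past 2-fold, and 17 of the 64 probes (26.6%) were past it. Seeds were assigned only to the 149 matched probes, of which 32 were past 2-fold. That share is above the 15.2% over all detected probes, so the 26.6% is to be read against the matched probes. In 2 of them all members were higher (miR-34 and miR-221/222), in 1 all were lower (miR-133), and UAAGACG, of miR-208b-3p and miR-208, was the only seed with members past 2-fold in both directions. Its 2 miRNAs lay 3.92 log2 units apart, while miR-133a and miR-133b lay 0.01 apart. Other seeds were mixed: miR-152 was at 1.55 and miR-148b-3p, with the same seed, at 0.44, and miR-125b-5p at 1.41 beside miR-351 at 0.73 and miR-125a-5p at 0.41.

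Both arms were detected for 26 hairpins, in 21 of which the measured differences of the arms had the same sign. Some of these differences include an arm not detected on 1 of the arrays. For miR-30a the shared sign rests on miR-30a* at -0.17, which was detected in MI only and gave no fold. Where both arms were detected on both arrays, the sign was shared in 12 of 13 hairpins. The miR-24 probe counts as an arm of both Mir24-1 and Mir24-2, so the 13 are not all separate pairs. Both arms of miR-22 lay at -0.03, with miR-22 at 0.55 without normalization, so its sign was not settled. Of all probes detected on both arrays 67.5% were above 0. In 4 hairpins (miR-31, miR-199a, miR-142 and miR-208) both arms were past 2-fold the same way. The arms of miR-21 differed most among those detected on both arrays: miR-21 was at 3.45 and miR-21* at 0.53, 2.92 log2 units apart. miR-21* read 458, 510, 484 and 412 in MI, against 477, 233, 250 and 216 in sham, so that 1 sham spot overlapped the MI spots; with the median of the spots miR-21* was at 0.74. Opposite signs were seen for the arms of miR-145, miR-191, miR-26b, miR-34b and miR-3573.

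Hairpins within 10 kb of each other on GRCr8 formed 27 clusters with 73 detected probes, some in more than 1 cluster. In 10 clusters a member was past 2-fold, in 0 in both directions, and 16 of the 73 probes (21.9%) were past it. Only probes matched to RefSeq could enter a cluster, and 32 of those 149 were past 2-fold. The share in clusters was thus about that of the matched probes, while 15.2% was the share over all detected probes. On chromosome 13, at 77116225 to 77121752 within the span of Dnm3, the Mir199a2 and Mir214 hairpins gave 3 of 3 probes higher (2.10 to 3.43). On chromosome 18, at 2157872 to 2160426, the Mir133a1 and Mir1 hairpins gave miR-133a, miR-133a* and miR-1 at -1.42, -0.90 and -1.16. In the cluster of Mir542, Mir351, Mir503 and Mir322 on chromosome X, values ran from 1.01 for miR-542-3p to -0.05 for miR-322. The probes of a mature strand made from several hairpins, such as those of let-7c, do not tell its hairpins apart.

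The probes at the top of the brightness range changed places between the arrays. The brightness of a spot is a property of the probe and labelling as well as of the miRNA, so only the order within an array is given. On the MI array the 10 brightest were miR-22, miR-143, miR-125b-5p, miR-23b, miR-24, miR-126, miR-30c, miR-29a, miR-142-3p and miR-23a. On the sham array they were miR-22, miR-126, miR-30c, miR-133b, miR-29a, miR-143, miR-24, miR-23b, miR-208 and miR-125b-5p. miR-142-3p and miR-23a were in the MI list alone, and miR-133b and miR-208 in the sham list alone. miR-22, the brightest on both, read 47533.5 to 49312 in MI and 30506.5 to 34724 in sham before normalization and had a log2 difference of -0.03 (SE 0.11) after it.

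Detection on 1 array was not alike for the 2 arrays. The 57 probes detected in MI only had a median spot SD of 0.13 on the MI array, and 9 were past 2-fold. The 16 probes detected in sham only had a median spot SD of 0.88 on the sham array, against 0.12 for probes detected on both, and 0 were past 2-fold. miR-191*, for example, read 236, 135, 107 and 102 in MI, against 980.5, 142, 121 and 409 in sham.

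Close to the threshold, the 10 miRNAs just past 2-fold were miR-542-3p, miR-33, miR-208*, miR-34b, miR-27b, miR-15b, miR-497, miR-1, let-7c and miR-221, with sizes of 1.01 to 1.21 on the log2 scale. The 10 just short of it were miR-99b (0.99), miR-129-1*/miR-129-2* (-0.98), miR-7a-2* (0.97, a bound), miR-146b (0.96), miR-151 (0.96), miR-191* (-0.95, a bound), miR-218 (0.93, a bound), miR-23b (0.92), miR-103-1* (-0.91) and miR-133a* (-0.90). Their SEs ran up to 0.99 for let-7c and 0.73 for miR-191*. None (0) of the 8 lower miRNAs was past 2-fold in all 16 alternatives, miR-150 having no value in 1 of them. Of the 27 higher miRNAs 16 were: miR-31, miR-31*, miR-21, miR-199a-5p, miR-199a-3p, miR-214, miR-208b-3p, miR-222, miR-140*, miR-193, miR-223, miR-34c, miR-152, miR-125b-5p, miR-195 and miR-142-3p.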

How the data were processed

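Hy3-labelled total RNA of rat heart was hybridized to 1 miRCURY LNA array (6th generation) per pool. The deposited scanner files hold the foreground and local background intensity of each spot, quantified with Mapix 4.5.0 at 5 µm, per the file headers. The percent of saturated pixels, also deposited by the authors, was not used. The authors' deposited value table holds log2 values; its background correction and centring are not given in the sources used here. Its columns rank detected rat probes nearly as the normalized means used here do (Spearman 0.9988 over 210 MI probes and 0.9911 over 171 sham probes). Over probes detected on both arrays its scale is wider (slopes 1.19 for MI and 1.13 for sham). Both columns have a median of 4.70. The lowest values, 0.0803 for 90 MI probes and 0 for 64 sham probes, have no order.

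Median foreground was corrected for median background by normexp (offset 50, limma 3.58.1, R 4.3.3) over all 12312 spots, both arrays were brought to the same quantiles with control spots left out, and the mean log2 value of the 4 spots was taken. For a probe detected on 1 array, the bound compares the bright mean with the dim probe's own mean or, if higher, with the lowest mean of any detected probe on the dim array; a bound under 1-fold gave no fold. Precision is limited by how far signal stands over background: local background had a median of 100 in MI and 94 in sham, the median foreground 121 and 117, and the median spot SD of detected probes 0.08 and 0.13. No rat probe had its spot median at the scanner limit (0 on both arrays); saturation of single pixels was not examined. The calculation was also run on simulated arrays made from the MI array with known folds. That run used a single offset and did not split probes by brightness, so it does not show what the offset does to dim probes. On the real arrays, an offset of 16 gave 34 higher and 11 lower, against 27 and 8 with the offset of 50.

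Named are all miRNAs past 2-fold, the 10 nearest either side of 2-fold and the 10 brightest per array; of the list members some are named and the rest are in the lists' counts and medians. The members, lists and rules were chosen with earlier results of these data known. Not analysed here were miR-155 and miR-486. Probe names were matched to RefSeq arms by name and a hand-made map; probes of near-identical miRNAs may share signal.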

Additional observations from a re-analysis of the deposited data

How the results depend on the processing

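No paired analysis was possible because each group was 1 pooled array. Leaving out replicates was likewise not possible, so the 4 spot sets were left out in turn: 25 to 30 miRNAs were then past 2-fold higher in MI and 9 or 10 lower, against 27 and 8. The higher count was 59 with plain subtraction of the local background, 42 with no normalization, 16 with arrays centred on the probes detected on both, and 63 and 12 at 1.5-fold and 3-fold. The lower count was 21 with plain subtraction, 1 with no normalization, 31 with centred arrays, 13 with cyclic loess, 4 with the spike-in shift, 28 in the authors' deposited table, and 23 and 1 at 1.5-fold and 3-fold. With the arrays shifted to a median difference of 0, an alternative chosen after seeing the data, the counts were 21 and 21. Scaling moved the median of probes detected on both from 0.24 to 0.46 with no normalization, 0.34 with the spike-in shift, 0.09 with cyclic loess, -0.16 in the authors' table and -0.25 with centred arrays; the cause of the difference in scale was not tested. The split of higher against lower thus depends on the scaling. Of the 35 miRNAs past 2-fold, 0 changed sign in an alternative that gave a value. For the 9 bounds this was partly fixed, since a probe detected in MI only is given no value below 0. Each of the 9 did have a value in all 16 alternatives. miR-150 lost its value by the same rule when all spots had to be over background. Spot errors leave out rats and arrays, and the 9 bounds depend on the floor of the sham array.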

Other observations

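The arrays also hold 24 probes for small nuclear, small nucleolar and 5S ribosomal RNAs, which were left out of the normalization and of the miRNA counts. Of these, 13 were detected on both arrays. Before normalization their log2 difference, MI minus sham, had a median of 0.39 and ran from -0.13 for SNORD68 to 1.04 for U6B, with 9 of 13 above 0. The 3 probes for the spliceosomal RNA U6 were at 1.04 (SE 0.09), 0.76 (SE 0.09) and 0.66 (SE 0.03), while 5S_rRNA was at -0.01 (SE 0.07), RNU1 at 0.17 (SE 0.04) and SNORD65 at -0.08 (SE 0.06). Small RNAs often used as loading controls thus differed from each other by about as much as the 2-fold threshold. Before normalization, the 157 miRNA probes detected on both arrays had a median of 0.46, and the 44 spike-in probes one of 0.12, from -0.32 to 0.42.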
